A study of Mus musculus with 6 samples.

Results

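The Hes, Hey and Id genes encode helix-loop-helix proteins, most of which hold neural progenitors back from becoming neurons. The set comprised 10 genes of the 22001 in the count table, taken by symbol: Hes1, Hes5, Hes6, Hey1, Hey2, Heyl, Id1, Id2, Id3 and Id4. All 10 were present, and 9 of the 10 had enough counts to be tested, the exception being Heyl. RNA was sequenced from mouse neocortical cells that were electroporated in utero at E13.5, taken at E14.5, 24 h later, and labelled as positive for the red fluorescent protein mCherry. Controls (3 libraries) received a plasmid encoding only mCherry, and the other group (3 libraries) a plasmid encoding Insm1, a zinc-finger transcription factor of neural progenitors, as well as mCherry. The labels give neither the mouse strain nor the promoter of the plasmids nor the number of embryos behind a library. They do not say either that libraries of a group came from separate litters, so p-values reflect only how far these 6 libraries spread, and part of that may be technical.

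Hes and Hey proteins are DNA-binding repressors. Most are switched on by Notch: a ligand on a neighbouring cell releases the intracellular part of the receptor, which joins the DNA-binding protein RBPJ at the Hes and Hey promoters. The repressors then recruit Groucho corepressors (Tle proteins) and keep proneural genes such as Neurog2 low in radial glia, the progenitors that line the ventricle. Hes6 is the exception in the family, since it antagonises Hes1 and is itself a target of proneural factors in cells that are leaving the progenitor state. Id proteins lack the basic region that contacts DNA. They bind E proteins (Tcf3, Tcf4 and Tcf12), the partners that proneural factors need, and are classic targets of BMP signalling.

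Library totals lay between 30017645 and 31645135 counts over all genes. The plasmid gene checked the labels: Insm1 was at 222, 331 and 371 CPM (counts scaled to library size) in the controls and at 1569.6, 2173 and 1436 CPM in the Insm1 libraries, a log2 fold change of 2.49 ± 0.26 (SE; adjusted p = 0.0122, edgeR quasi-likelihood test over all tested genes with Benjamini-Hochberg adjustment). CPM values here are scaled by TMM and serve to compare libraries, while TPM, which the authors scaled by gene length, serve to compare genes. All 12 radial glia markers and all 8 neuron markers had enough counts to be tested. Endothelial markers summed to between 0.519 and 2.79 CPM and mural cell markers to between 1.16 and 4.14 CPM in single libraries, and the groups overlapped in both sums. Red blood cell markers were uneven, at 406, 3133 and 186 CPM in controls 1, 2 and 3 and between 1713 and 3669.9 CPM in the Insm1 libraries.

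Across the 9 tested genes 1 was called, Id4, which fell, and none rose. The share called among all 13560 tested genes was 3.35%, of which 2.12% were lower and 1.23% higher. A count of 1 in 9 is a single gene, and nothing is read from it about the family. The median log2 fold change of the 9 was -0.11, with 6 of the 9 negative, against -0.0086 for all tested genes, of which 51.9% were negative. In CPM the groups of libraries did not overlap in 3 of the 9: Hes1 and Id4 lay lower with Insm1 and Id2 higher. The same held for 22.2% of all tested genes, with Insm1 below in 11.8% and above in 10.4%. The number of called members depended on the libraries and the tool. DESeq2 called 3 (Hes1, Id3 and Id4) where it called 7.49% of all tested genes. The fit without control 2 called 3 (Hey2, Id3 and Id4) and 4.76% of all genes. The fits without control 1, without Insm1 library 1 and without the robust option each called 2 (Hes1 and Id4), against 1.73%, 2.73% and 3.14% of all genes. At an unadjusted p below 0.05, 4 of the 9 passed (Hes1, Id2, Id3 and Id4, of which Id2 was higher), as did 17.2% of all tested genes.

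**Figure D1:**
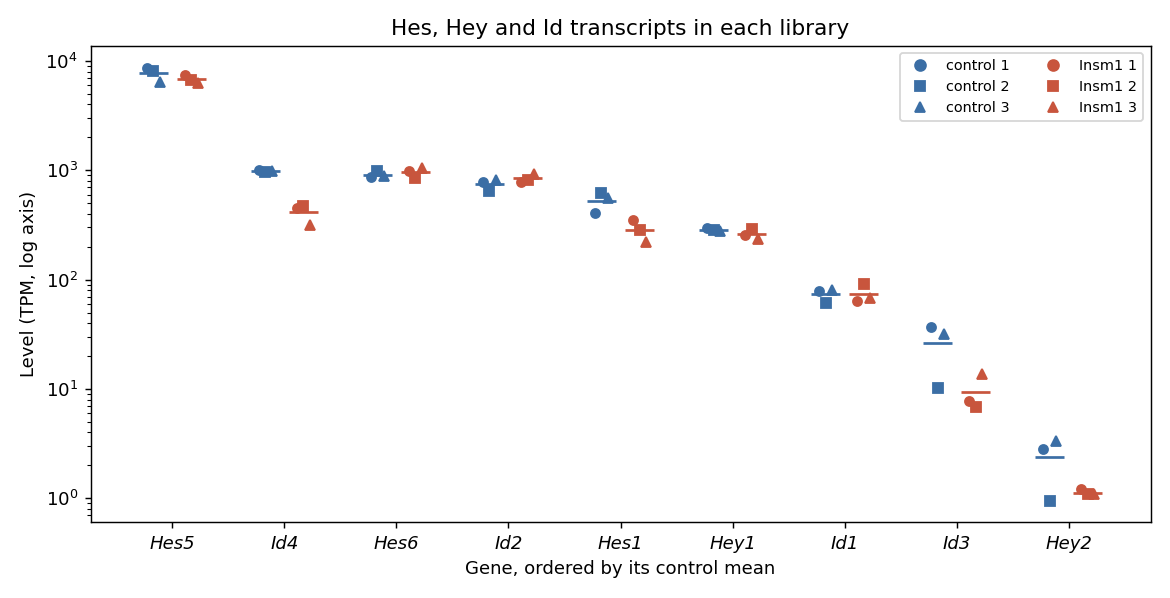
Level of each gene in TPM (log axis) in every library, with genes ordered by their control mean. Circles, squares and triangles are libraries 1, 2 and 3, blue for controls and red for Insm1, and lines are group means. Hes5 lay far above the others, Id4 lay lower in all 3 Insm1 libraries than in any control, and control 2 stood below the other controls for Id3 and Hey2. Heyl, at 0 in 3 libraries, is not drawn.

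The genes differed widely in level. In the controls Hes5 stood first at 7737 ± 1167 TPM (SD, n = 3), and it ranked between 11th and 18th of all genes in single libraries. Id4 at 987 ± 18.4 TPM, Hes6 at 908 ± 62.5 TPM and Id2 at 749.6 ± 92.1 TPM (SD, n = 3) followed. Id4 and Hes6 overlapped in their libraries, Hes6 lay wholly above Id2, and Id2 wholly above Hes1. Hes1 was at 527 ± 109.6 TPM and Hey1 at 285 ± 11.03 TPM (SD, n = 3). Id1 was at 73.1 ± 10.7 TPM, Id3 at 26.1 ± 14.0 TPM and Hey2 at 2.37 ± 1.26 TPM (SD, n = 3). With Insm1 the order changed in its middle. Hes6 at 964 ± 101.7 TPM and Id2 at 843 ± 72.5 TPM overlapped behind Hes5, and Id4 at 412 ± 83.7 TPM (SD, n = 3) came after them. The Insm1 libraries of Id4 overlapped with those of Hes1, at 285 ± 64.2 TPM, and those of Hes1 with those of Hey1, at 260.5 ± 29.9 TPM (SD, n = 3).

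Hes5, the main Notch effector of cortical radial glia alongside Hes1, is encoded at chromosome 4, 154960923 to 154962371, plus strand (GRCm38, ENSMUSG00000048001). The promoter table from RefSeq (GRCm38.p6) matched 6 of the 10 genes, with 7 windows. The 250 bases before the start are shown for Hes5, whose window held the RBPJ core TGGGAA at 2 places, for Hes6, which held none, and for Id4, the gene that fell. The windows of Hey2, Id2 and Id3, which overlap annotated exons of the gene itself, and a second Hes6 window, which lies inside the gene, are not shown. The Hes5 window overlaps an exon of Gm20421, a non-coding gene on the other strand. Sequences read 5′ to 3′ along the gene's strand, and capitals mark TGGGAA or its reverse complement TTCCCA.

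Hes5: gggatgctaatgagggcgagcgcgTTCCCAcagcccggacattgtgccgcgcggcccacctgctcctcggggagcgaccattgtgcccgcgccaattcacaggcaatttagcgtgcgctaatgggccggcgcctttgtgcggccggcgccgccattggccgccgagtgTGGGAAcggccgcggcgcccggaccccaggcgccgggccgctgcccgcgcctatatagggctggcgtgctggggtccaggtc

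Hes6: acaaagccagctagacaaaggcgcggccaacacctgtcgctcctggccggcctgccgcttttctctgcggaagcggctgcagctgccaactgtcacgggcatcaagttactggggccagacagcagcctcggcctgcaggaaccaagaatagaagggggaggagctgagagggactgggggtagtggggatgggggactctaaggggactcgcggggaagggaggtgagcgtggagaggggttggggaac

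Id4: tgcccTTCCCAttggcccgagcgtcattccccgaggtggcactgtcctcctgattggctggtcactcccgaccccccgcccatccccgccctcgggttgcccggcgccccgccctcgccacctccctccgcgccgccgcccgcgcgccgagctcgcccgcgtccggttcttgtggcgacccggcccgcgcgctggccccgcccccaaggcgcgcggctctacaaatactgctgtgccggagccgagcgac

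The Hes5 window is chr4:154960673-154960922 (plus strand), the Hes6 window chr1:91414039-91414288 (minus strand) and the Id4 window chr13:48260866-48261115 (plus strand). In Hes5 the matches begin 226 bases (TTCCCA) and 82 bases (TGGGAA) before the start, in Id4 245 bases before it (TTCCCA). Distances are to the RefSeq start, which for Id4 lies upstream of the GENCODE gene start at 48261228. The core was present on either strand in 21.6% and at 2 or more places in 2.77% of the 32851 promoter windows of this length. CACNAG, the N-box, and CACGNG, the class C site, both bound by Hes proteins, were also searched on both strands. CACNAG matched in Id4, 82 bases before the start, and in 36.7% of windows, and CACGNG in this Hes6 window, 157 bases before the start, and in 23.5% of windows. In the windows not shown, TGGGAA matched in Hey2, 207 bases before the start, and CACNAG in the second Hes6 window, 237 bases before its start. No match of 1 motif shared bases with that of another in these 3 windows. A match describes letters only, and no binding was measured.

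Hes5 did not pass the test. It was at 1423, 1335 and 1021 CPM in controls 1, 2 and 3 and at 1281, 1143 and 1070.0 CPM in Insm1 libraries 1, 2 and 3. The groups overlapped fully, with control 3 the lowest of all 6 libraries. The log2 fold change was -0.11 ± 0.12 (SE; adjusted p = 0.718), and its 95% interval, from -0.38 to 0.15 and not adjusted for multiple tests, leaves changes between 0.769-fold and 1.11-fold. Exons of Hes5 overlap the non-coding gene Gm20421 on the other strand, which is not a row of the table. The cDNA was sheared after amplification, which keeps no strand, and reads of the pair cannot be told apart.

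Hes1 (chromosome 16, 30064384 to 30067796, plus strand, ENSMUSG00000022528), whose product oscillates in progenitors and represses proneural genes, was lower with Insm1 in every library but missed the threshold. It was at 157, 242 and 207 CPM in controls 1, 2 and 3 and at 142, 113 and 88.9 CPM in Insm1 libraries 1, 2 and 3. The groups did not overlap, although control 1 stood only slightly above Insm1 library 1. The log2 fold change was -0.82 ± 0.20 (SE; edgeR adjusted p = 0.0854). Leaving out either library of that close pair brought it past the threshold, at -0.96 (adjusted p = 0.0473) without control 1 and -1.002 (adjusted p = 0.0476) without Insm1 library 1. DESeq2 (adjusted p = 0.0272) and the edgeR fit that is not robust (adjusted p = 0.0475) called it lower. Over all 16 alternatives the log2 fold change stayed between -1.002 and -0.67, with adjusted p between 0.0272 and 0.239.

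Hes6 (chromosome 1, 91411483 to 91414038, minus strand, ENSMUSG00000067071), the antagonist, did not pass. It was at 248, 286 and 248 CPM in controls 1, 2 and 3 and at 298, 255 and 315 CPM in the Insm1 libraries. Insm1 library 2 lay below control 2, so the groups overlapped. The log2 fold change was 0.15 ± 0.09 (SE; adjusted p = 0.449), with a 95% interval from -0.05 to 0.35.

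**Figure D2:**
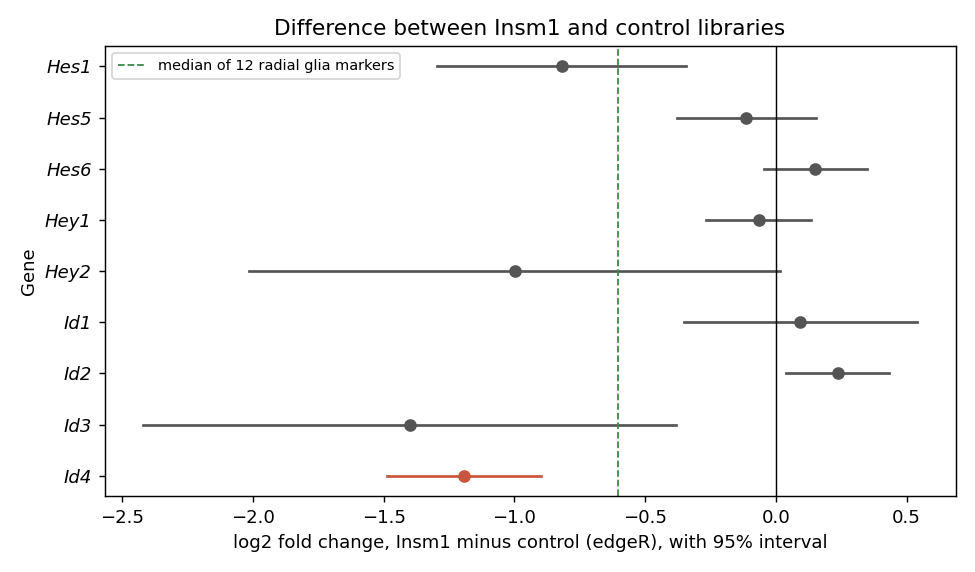
Log2 fold change of each tested gene between Insm1 and control libraries, with its 95% interval from the edgeR fit. The dashed line is the median of 12 radial glia markers, at -0.60. The red point is Id4, the only gene of the 9 called at an adjusted p below 0.05, and the intervals of Hes5, Hes6, Hey1, Id1 and Id2 lay to the right of the dashed line.

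Hey genes encode relatives of Hes proteins that also respond to Notch, and only Hey1 was abundant. Hey1 (chromosome 3, 8663359 to 8667256, minus strand) was at 131, 126 and 118 CPM in the controls and at 117, 134 and 107 CPM in the Insm1 libraries. The highest and the lowest library both belonged to the Insm1 group. Its log2 fold change was -0.07 ± 0.09 (SE; adjusted p = 0.794), with a 95% interval from -0.27 to 0.13. Hey2 (chromosome 10, 30832359 to 30842801, minus strand) rested on 35 to 117 counts per library, at 3.33, 1.14 and 3.82 CPM in controls 1, 2 and 3 and at 1.49, 1.33 and 1.33 CPM in the Insm1 libraries. Control 2 was the lowest of all 6. The log2 fold change of Hey2 was -0.999 ± 0.46 (SE; adjusted p = 0.301), and -1.37 without control 2 (adjusted p = 0.0490). Heyl (chromosome 4, 123233556 to 123249875, plus strand), which is known from muscle progenitors and vessel walls, had 15, 2 and 0 counts in the controls and 18, 0 and 0 in the Insm1 libraries. A count of 0 allows up to 3 counts, or 0.0970 to 0.0979 CPM in these libraries, and covers counting error only. No difference in Heyl was detectable at this depth.

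Among Id genes Id4 and Id2 made up most of the RNA, and of these only Id4 was called. Id4 (chromosome 13, 48261228 to 48266026, plus strand, ENSMUSG00000021379), which is known for keeping cortical progenitors dividing and timing their differentiation, was at 542, 529.7 and 522 CPM in controls 1, 2 and 3. It was at 256, 264 and 178 CPM in Insm1 libraries 1, 2 and 3. Controls lay within a narrow band, and every Insm1 library lay far below it. The fall was 2.29-fold, a log2 fold change of -1.19 ± 0.13 (SE) and a 95% interval from -1.49 to -0.90 (edgeR adjusted p = 0.00525). Id4 was called in all 16 alternatives, with log2 fold changes between -1.29 and -1.03 and adjusted p up to 0.0401. With log2 CPM an exact permutation test, two-sided, gave p = 0.1, the smallest that 3 libraries against 3 allow. Exons of Id4 overlap the non-coding genes A330033J07Rik and Gm49291 on the other strand, which are not rows of the table, so their reads cannot be told apart.

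Id2 (chromosome 12, 25093799 to 25097140, minus strand, ENSMUSG00000020644) lay slightly higher with Insm1 but was not called. It was at 297, 246 and 299 CPM in the controls and at 309.6, 321 and 361 CPM in the Insm1 libraries. The groups did not overlap in CPM. In TPM they did, with Insm1 library 1 at 784 below controls 1 and 3 at 788 and 816. The log2 fold change was 0.24 ± 0.09 (SE; adjusted p = 0.197), and it stayed between 0.15 and 0.29 over the 16 alternatives, none of which called it. Id1 (chromosome 2, 152736251 to 152737410, plus strand), a direct BMP target, was at 10.3, 8.05 and 10.2 CPM in the controls and at 8.66, 12.5 and 9.28 CPM in the Insm1 libraries, which overlap. Its log2 fold change was 0.09 ± 0.20 (SE; adjusted p = 0.876), turning to -0.01 without control 2 and -0.08 without Insm1 library 2.

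Id3 (chromosome 4, 136143497 to 136145755, plus strand), the other Id gene that BMP commonly induces, had the most negative fold change of the set but was not called. It was at 9.32, 2.63 and 7.80 CPM in controls 1, 2 and 3 and at 2.07, 1.82 and 3.59 CPM in the Insm1 libraries, from 56 to 288 counts per library. Control 2 lay below Insm1 library 3, so the groups overlapped. The log2 fold change was -1.40 ± 0.46 (SE; adjusted p = 0.140). Without control 2 it was -1.78 (adjusted p = 0.0129), and DESeq2 called Id3 lower with all libraries (adjusted p = 0.0292).

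Control 2 was thus low for Id3 and Hey2 and high for Hes1. Markers of Cajal-Retzius neurons, early-born cells at the cortical surface, moved in the same way as Id3 and Hey2. The 6 markers summed to 139, 37.7 and 136 CPM in controls 1, 2 and 3 and to 57.4, 44.3 and 37.2 CPM in Insm1 libraries 1, 2 and 3. Reln, which encodes the secreted guide of migrating neurons, was at 102, 29.4 and 97.6 CPM in the controls. None of the 6 was called by edgeR. At an unadjusted p below 0.05 were 2 of the 6 and 17.2% of all tested genes, and DESeq2 called 1 (Lhx5) and 7.49% of all tested genes. Microglia markers summed to 2.72, 61.95 and 8.32 CPM in the controls and to 11.2, 34.5 and 15.0 CPM in the Insm1 libraries, with control 2 the highest. Their part in the Id3 and Hey2 values was not tested.

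**Figure D3:**
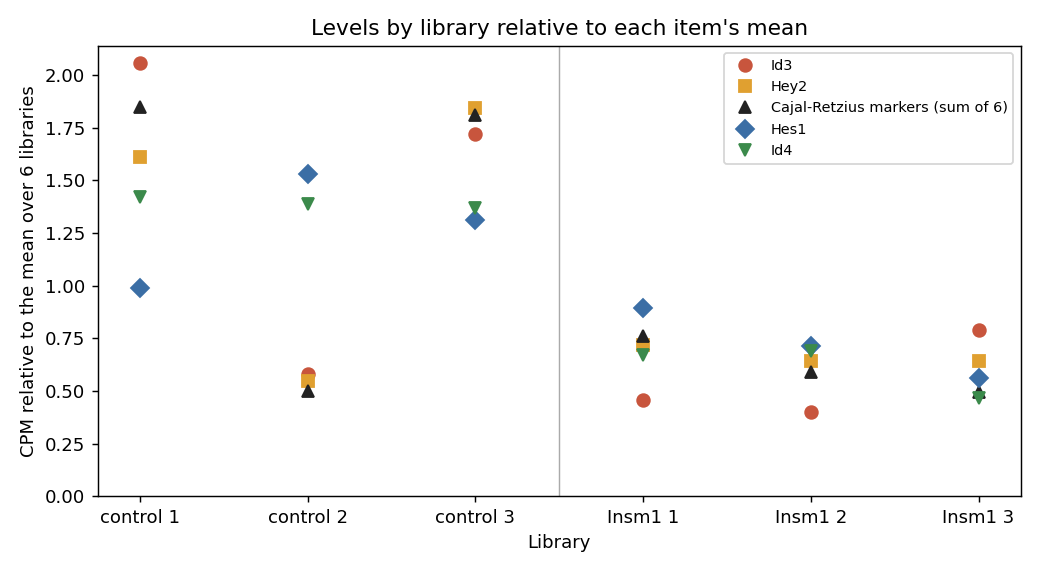
CPM in each library divided by the mean over the 6 libraries, for Id3, Hey2, Hes1, Id4 and the sum of 6 Cajal-Retzius markers. Id3, Hey2 and the Cajal-Retzius sum lay between 0.4997 and 0.579 in control 2 and between 1.61 and 2.05 in controls 1 and 3, whereas Id4 was alike in the 3 controls.

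The balance within each family was taken as a ratio of TPM in each library. Id4 made up 52.5, 57.4 and 51.7% of all Id TPM in the controls and 34.5, 33.8 and 23.9% in the Insm1 libraries, while Id2 made up 40.7 ± 2.15% and 63.0 ± 5.98% of it (SD, n = 3). The summed Id TPM was 1904, 1681 and 1921 in the controls and 1306, 1389 and 1322 in the Insm1 libraries. The ratio of Id2 to Id4 was 0.788, 0.667 and 0.821 in the controls and 1.74, 1.75 and 2.92 in the Insm1 libraries. Among Hes genes, the ratio of the antagonist Hes6 to Hes1 was 2.12, 1.58 and 1.60 in the controls and 2.81, 3.02 and 4.73 in the Insm1 libraries. Hes5 made up 81.6 ± 2.93% of all Hes and Hey TPM in the controls and 81.9 ± 1.03% in the Insm1 libraries (SD, n = 3), while the share of Hes1 was 5.66 ± 1.502% and 3.39 ± 0.513% (SD, n = 3). Hes1 was at 3.96% in control 1 and 3.87% in Insm1 library 1. Of 17 such ratios, shares and sums, including those to radial glia markers below, 12 had groups that did not overlap. Each of these had an exact permutation p of 0.1, the smallest possible, and an adjusted p of 0.142. Several of the 12 contain Id4 and others share the radial glia marker sum, so they are not separate results. No matching share was taken for ratios of other genes, and nothing is read from the count.

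Markers of radial glia, the cells in which Hes1, Hes5 and Id4 are known to act, were partly lower with Insm1. Of 12 markers tested, 6 fell, none rose and 6 did not pass, where 2.12% of all tested genes were called lower, and their median log2 fold change was -0.60. The fatty acid binding protein gene Fabp7 fell by 0.85 on the log2 scale, the glutamate transporter gene Slc1a3 by 1.07 and the nuclear receptor gene Nr2e1 by 0.67 (adjusted p = 0.00113, 0.00386 and 0.00559), and these 3 were called with any single library left out. The intermediate filament genes Vim and Nes fell by 0.53 and 0.60 on the log2 scale (adjusted p = 0.0116 and 0.0157) and the glial factor gene Sox9 by 0.65 (adjusted p = 0.0393). Vim, Nes and Sox9 lost the call without control 3 (adjusted p = 0.0563 for Vim, 0.0517 for Nes and 0.129 for Sox9), as did Nes and Sox9 without control 1 (0.0556 and 0.138) or Insm1 library 2 (0.0557 and 0.0894). The 12 markers summed to between 2483 and 2675 CPM in the controls and between 1511 and 1889.8 CPM in the Insm1 libraries. In bulk samples fewer cells of a type and less RNA per cell cannot be told apart, and the part of these markers in the Id4 and Hes1 values was not tested. Dissociation stress genes summed to 575, 429.5 and 467 CPM in the controls and to 375, 359 and 393 CPM in the Insm1 libraries, lower in all 3. Much of each sum was Jun, at 241, 244 and 287 CPM in the controls and 207, 162 and 170 CPM in the Insm1 libraries. Jun was the only 1 of the 8 whose groups did not overlap, against 22.2% of all tested genes, so the sum does not describe the others. Of these 8 genes 1 was called, Jun, which fell by 0.52 on the log2 scale (adjusted p = 0.0237) and lost the call without control 3, Insm1 library 2 or Insm1 library 3 (adjusted p = 0.115, 0.0890 and 0.101). Their part in these values was not tested. The ratio of Hes5 CPM to the summed CPM of the 12 radial glia markers was 0.532, 0.526 and 0.411 in the controls. It was 0.678, 0.637 and 0.708 in the Insm1 libraries, higher in all 3. The ratio for Id4 went the other way, from 0.203, 0.209 and 0.2103 to 0.135, 0.147 and 0.118. The ratio for Hes1 overlapped, at 0.0585, 0.0954 and 0.0834 in the controls and 0.0749, 0.0628 and 0.0588 in the Insm1 libraries. Those for Hey1 and Hes6 were higher with Insm1, at 0.0690 ± 0.0064 against 0.0486 ± 0.0011 and at 0.169 ± 0.0346 against 0.102 ± 0.0101 (SD, n = 3). So were those for Id1 and Id2, at 0.00589 ± 0.0012 against 0.00370 ± 0.000475 and at 0.194 ± 0.0398 against 0.109 ± 0.0117 (SD, n = 3). The marker sum was itself lower with Insm1, so a gene whose CPM did not change rises in this ratio. None of Hes5, Hey1, Hes6, Id1 and Id2 was called in its own CPM.

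Neuron markers summed to between 4413 and 4907 CPM in the controls and between 5032 and 5433 CPM in the Insm1 libraries, higher in all 3. Tubb3, the most abundant of the 8, was at 1836, 1718 and 1683 CPM in the controls. With Insm1 it was at 2260, 2265 and 2329 CPM, so the sum largely follows Tubb3 and does not describe the other 7. Of the 8, 1 was called, the neuronal tubulin gene Tubb3, which rose by 0.39 on the log2 scale (adjusted p = 0.00536). Of all tested genes 1.23% were called higher. The other 7 neuron markers did not pass in edgeR, and they lay on both sides. DESeq2 called 5 of the 8 (Tubb3, Tbr1, Stmn2, Mapt and Rbfox3) and 7.49% of all tested genes. At an unadjusted p below 0.05 in edgeR were 6 of the 8 and 17.2% of all tested genes. Mapt and Stmn2, both of the neuronal cytoskeleton, had log2 fold changes of -1.01 and -0.61 (adjusted p = 0.0592 and 0.0908), and Rbfox3 and Tbr1 of 0.36 and 0.22 (adjusted p = 0.080 and 0.101). Of 7 basal progenitor markers 1 was called, the receptor gene Sstr2, which rose by 0.59 on the log2 scale (adjusted p = 0.0137). It lost the call without control 3, Insm1 library 2 or Insm1 library 3 (adjusted p = 0.0654, 0.0564 and 0.0521). The part of these markers in the Hes, Hey and Id values was not tested.

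**Figure D4:**
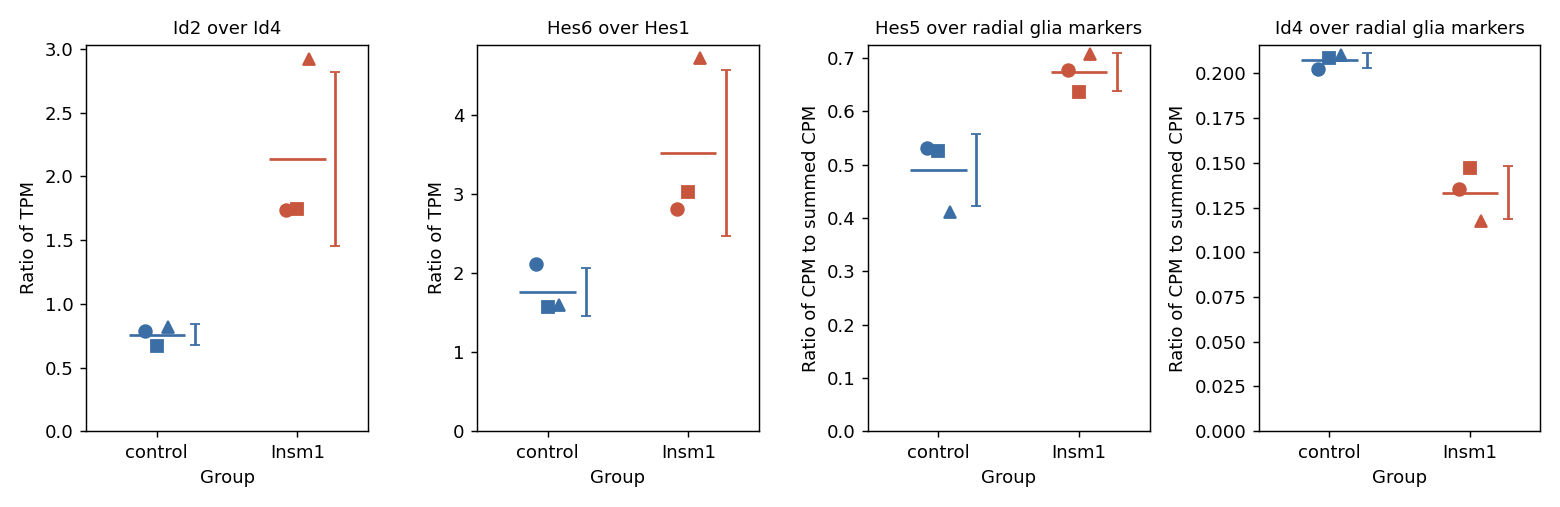
Ratio of Id2 to Id4 and of Hes6 to Hes1 in TPM, and of Hes5 and Id4 CPM to the summed CPM of 12 radial glia markers. Circles, squares and triangles are libraries 1, 2 and 3, lines are means and bars ± 1 SD. The first 3 ratios were higher and the last lower in every Insm1 library than in any control. The radial glia marker sum was itself lower in the Insm1 libraries, so an unchanged gene rises against it.

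The genes around the repressors were taken from lists of the pathway. Of 24 Notch pathway genes, all tested, 2 fell, 2 rose and 20 did not pass, with a median log2 fold change of 0.02, where 2.12% of all tested genes were called lower and 1.23% higher. DESeq2 called 7 of the 24, adding Notch3, Dll3 and Lfng, and 7.49% of all tested genes. The receptor genes Notch1 and Notch2 were at 136, 149.9 and 135 CPM and at 22.3, 21.8 and 21.1 CPM in the controls, and at 116, 106 and 92.9 CPM and 16.2, 13.9 and 12.0 CPM in the Insm1 libraries. All Insm1 libraries lay below the controls in both, with log2 fold changes of -0.42 and -0.63 (adjusted p = 0.0337 and 0.0431). Mfng, which modifies Notch receptors with sugars, and Numbl, the paralogue of Numb, which inhibits Notch, rose by 0.34 and 0.37 on the log2 scale (adjusted p = 0.0337 and 0.0111). With single libraries left out, Notch1 and Notch2 were called only without Insm1 library 1 (adjusted p otherwise 0.068 to 0.104 and 0.068 to 0.140) and Mfng only without control 2 (otherwise 0.0721 to 0.127), while Numbl lost the call only without control 3 (0.0556). Exons of Notch1, Notch2 and Numbl overlap other annotated genes that are not in the table, so their reads may be shared. Rbpj, the DNA-binding partner of Notch, was named after its values were seen, and was at 228 ± 19.5 CPM in the controls and 242 ± 23.2 CPM in the Insm1 libraries (SD, n = 3).

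Of the partners through which Hes and Id proteins act, 5 Groucho and 3 E protein genes, none was called by edgeR or DESeq2. Of these genes 3 had an unadjusted p below 0.05 (Tle2, Aes and Tcf4), as did 17.2% of all tested genes. Among 5 tested Groucho genes the groups did not overlap in 4, against 22.2% of all tested genes, with Insm1 below in 2 (Tle1 and Tle3) and above in 2 (Tle2 and Aes). Their median log2 fold change was -0.14. Aes, a short member of that family, was at 335 ± 4.24 and 369 ± 10.1 CPM (SD over 3 libraries; adjusted p = 0.209) and Tle3 at 128 ± 4.81 and 116 ± 6.03 CPM (adjusted p = 0.318). Of 3 E protein genes, the partners of Id proteins, Tcf4 was at 1803 ± 27.5 and 2039 ± 151 CPM (SD, n = 3), a log2 fold change of 0.18 (adjusted p = 0.139). Tcf3 was at 402 ± 38.7 and 424 ± 8.34 CPM (adjusted p = 0.683). Of 3 tested relatives of the Hes genes none was called by edgeR or DESeq2, and 1, Bhlhe40, had an unadjusted p below 0.05. Bhlhe41 was at 32.96 ± 2.16 and 30.8 ± 3.22 CPM and Bhlhe40 at 10.5 ± 2.51 and 6.12 ± 2.68 CPM (SD over 3 libraries; adjusted p = 0.760 and 0.219), while Hes2, Hes3 and Helt had too few counts to be tested.

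In the BMP pathway, whose signal induces Id genes in many cells, 0 of 17 tested genes were called by edgeR, with a median log2 fold change of -0.12. Of the 17, 4 had an unadjusted p below 0.05 (Bmpr1b, Acvr2b, Smad5 and Nog), as did 17.2% of all tested genes. DESeq2 called 1, the receptor gene Bmpr1b, and 7.49% of all tested genes. The mediators Smad4 and Smad5 were at 221 ± 9.32 and 203 ± 22.9 CPM and at 185 ± 4.08 and 163 ± 2.21 CPM (SD over 3 libraries; adjusted p = 0.553 and 0.126).

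Proneural bHLH genes are among those that Hes and Id proteins hold in check, and neuronal bHLH genes were listed with them. Of 11 tested, 3 rose and 7 did not pass, with a median log2 fold change of 0.27, where 1.23% of all tested genes were called higher. Nhlh1 rose from 40.7, 44.7 and 37.2 CPM in the controls to 85.5, 84.5 and 68.5 CPM in the Insm1 libraries, and Neurod1 and Neurod6, factors of young projection neurons, rose by 0.58 and 0.31 on the log2 scale (adjusted p = 0.00525 for Nhlh1, 0.00559 for Neurod1 and 0.0295 for Neurod6). With single libraries left out, Neurod6 was called only without control 2 or Insm1 library 1 (adjusted p otherwise 0.086 to 0.107), and Neurod1 and Nhlh1 were called in all 6 such fits. Neurog2 and Neurog1, named after their values were seen, did not pass, with log2 fold changes of -0.12 and -0.018 (edgeR adjusted p = 0.884 and 0.987). Exons of Neurod1 overlap Cerkl, so reads of the pair may be pooled or split.

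**Figure D5:**
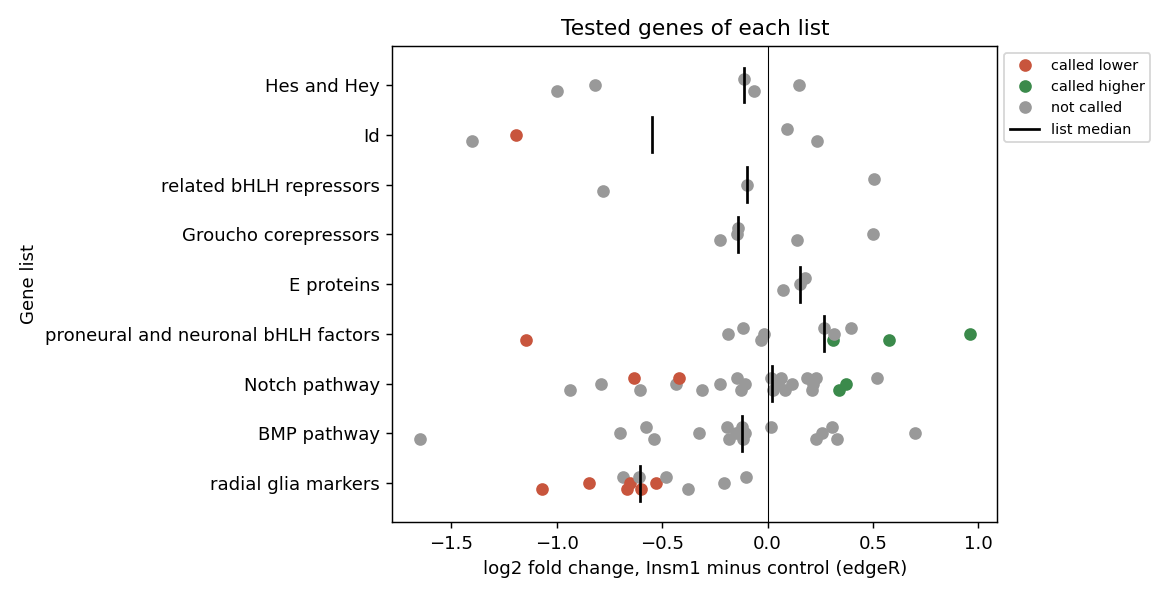
Log2 fold change of every tested gene in the Hes and Hey, Id, pathway and radial glia lists. Red points were called lower and green points higher at an adjusted p below 0.05, grey points did not pass, and black bars are list medians, from -0.60 for radial glia markers to 0.27 for proneural and neuronal factors.

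The genes most like Hes1, Hes5 and Id4 were sought by the root mean square distance between log2 CPM values centred on each gene's mean over the 6 libraries, among the 7868 other genes that reached a mean of 20 CPM in a group. Fzd8, a Wnt receptor gene, was closest to Hes1 (0.088), followed by the adhesion receptor gene Gpr98 (0.095) and the chromatin protein gene Hmga2 (0.12), where the median candidate was 0.51 away. Fzd8 was at 94.9, 139 and 113 CPM in controls 1, 2 and 3 and at 86.2, 61.4 and 57.3 CPM in the Insm1 libraries. Like Hes1 it was highest in control 2 and lowest in Insm1 library 3. Closest to Id4 were Cyr61, which encodes a matrix-associated signalling protein (0.11), the radial glia marker Slc1a3 (0.12) and the serine synthesis gene Psat1 (0.13), with a median candidate at 0.65. Cyr61 was at 69.5, 67.7 and 66.7 CPM in the controls and at 33.2, 27.5 and 22.8 CPM in the Insm1 libraries, and so had the narrow control band of Id4. Closest to Hes5 were Snx19 (0.046), Papd5 (0.059) and Rassf4 (0.068), with a median candidate at 0.21. These distances describe 6 libraries and carry no test.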

How the data were processed

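RNA of mCherry-positive cells was measured in 3 control and 3 Insm1 libraries. Per the labels' protocols, cDNA was made by poly-dT priming and template switching, amplified for 12 cycles, sheared, amplified for 15 more and read as single 75-base ends, without molecular identifiers. TopHat2 2.0.13, Bowtie and bcl2fastq are named in the submitters' processing notes, with the build GRCm38; counting program and annotation: not given in the sources used here. Whole-number counts per Ensembl gene and TPM values were deposited by the authors, with no TPM for 333 genes.

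Counts were filtered by filterByExpr, scaled by TMM (factors 0.975 to 1.02) and compared by group with the robust quasi-likelihood test of edgeR 4.0.16 (R 4.3.3), called at an adjusted p below 0.05. Standard errors and intervals come from the F statistic. Members and gene lists were chosen with earlier results of these data known. Named genes are the members, called pathway genes (or the 2 with the highest CPM), leading or called markers, and nearest genes by distance. The result of 1 proneural gene that this rule takes, counted in its list of 11, is not reported here. Tried besides were DESeq2 1.42.0, limma 3.58.1 (voom, and log2(TPM + 1) or log2(TPM + 0.1)), scaling by RLE or upper quartile, other filters, a block for the library number, omission of each library and a fit that is not robust. Coordinates are from GENCODE M21.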

Additional observations from a re-analysis of the deposited data

How the results depend on the processing

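The settings were compared over 36 genes: the tested members, Insm1, the pathway genes named by the rule, called markers (up to 3 per list) and called nearest genes. The radial glia markers Fabp7 and Nr2e1 were called as well but fell outside that limit. Over 16 alternatives, 489 of 574 values kept their direction and side of the threshold. Of the rest, 75 were no longer called, 7 were newly called and 3 turned sign. The sign turned for Hey1 without Insm1 library 3 (0.0072) and for Id1 without control 2 (-0.011) or Insm1 library 2 (-0.083), on the log2 scale, and with single libraries left out Hey1 ranged from -0.16 to 0.0072 and Id1 from -0.083 to 0.20. Of the 36 genes 20 were called, and 8 of these stayed called whichever library was omitted. The 454 calls over all genes became 1016 with DESeq2, 100 with limma on log2(TPM + 1) and 96 with log2(TPM + 0.1), and between 116 and 645 with single libraries left out, 116 without control 3, 194 without Insm1 library 2, 218 without Insm1 library 3 and 234 without control 1. The count of 1 called member became 3 with DESeq2, 2 with the fit that is not robust and between 1 and 3 with single libraries left out. With the library number as a replicate block 331 genes and 1 member, Id4, were called. The labels do not say that the numbers pair libraries, and deviations from group means correlated at 0.0744, 0.0349 and -0.055 between libraries of the same number. The causes were not tested. Depth left Heyl untested. Hey2 (35 to 117 counts) and Id3 (56 to 288) had the fewest counts of the tested members, and both were called once control 2 was left out.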
